A study of Mus musculus with 2 samples.

Results

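Leukocyte adhesion molecules are described here through 9 genes chosen by symbol from the 32285 gene rows of 2 single-cell RNA libraries: Itgb1, Itgb2, Itgal, Itgam, Itga4, Selplg, Cd44, Icam1 and Icam2. All 9 were present in both libraries, and they were chosen with earlier results of these data known. Cells came from female BALB/cAnNCrl mice, aged 7 to 8 weeks at purchase, that carried 4T1-Luc liver metastases, a luciferase-marked mouse mammary carcinoma line seeded through the spleen by hemisplenectomy, and that had received hepatic arterial infusion (HAI) of the vehicle or of the curaxin CBL0137, a small molecule that loosens the contacts between DNA and histones. Cells were taken 5 days after treatment with 2 mice pooled, and each library mixed 3 hashtag groups, where a hashtag is an antibody carrying a DNA barcode: the vehicle carried A0301, the low dose A0305 and the high dose A0310. The sources used here state no amount for either dose. The labels describe leukocytes from a density gradient while the methods describe cells isolated on CD11b beads, and CD11b is the protein of Itgam, and the part of the isolation in the Itgam levels was not tested. The question put to the data was in which leukocytes and endothelial cells each adhesion gene was found and whether its level differed with the dose. Each hashtag group was 1 pooled sample per library, so there is no replicate check, no p-value is given, and every interval below is at 95% and covers counting error only.

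Leukocytes leave the blood in steps. Selectins on the vessel wall catch glycoproteins such as P-selectin glycoprotein ligand-1 and the cell rolls, chemokines then switch integrins into their binding state, and the integrins hold the cell on immunoglobulin-like counter-receptors of the endothelium. In the sinusoids of the liver, where flow is slow, neutrophils are also known to be held by CD44 bound to hyaluronan. Each integrin is a pair of an alpha and a beta chain, so a receptor needs RNA of both genes.

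The integrin chains measured were Itgb1 (beta 1, chr8:128685654-128733200, plus strand), which pairs with the alpha 4 chain of Itga4 (chr2:79255426-79333123, plus strand) to form VLA-4, and Itgb2 (beta 2, chr10:77530252-77565708, plus strand), which pairs with the chain of Itgal (chr7:127296260-127335138, plus strand) to form LFA-1 and with that of Itgam (chr7:128062640-128118491, plus strand) to form Mac-1. Selplg (chr5:113818536-113832644, minus strand) encodes the selectin ligand and Cd44 (chr2:102811141-102901665, minus strand) the hyaluronan receptor. Icam1 (chr9:21015985-21028817, plus strand) and Icam2 (chr11:106377656-106388075, minus strand) encode counter-receptors of the beta 2 integrins, of which Icam1 is known to be induced in inflammation and Icam2 to be present on resting endothelium. All are protein-coding genes, and coordinates are those of GRCm38 in GENCODE mouse release M21.

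The dose of each cell was read from its hashtag barcode, so these sequences carry every comparison of doses. They are the deposited 15-base barcodes in 5′ to 3′ order.
A0301, vehicle: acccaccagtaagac
A0305, low dose: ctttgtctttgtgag
A0310, high dose: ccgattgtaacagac

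The Icam1 level was above that of the vehicle at both doses in B cell-like cells of the liver-labelled library. In monocyte-like cells it was at least 2-fold higher at the low dose of the liver-labelled library and at the high dose of the spleen-labelled library. In neutrophil-like cells of the liver-labelled library it was at least 2-fold lower at the high dose. The 250 bases before the RefSeq start of Icam1 (GRCm38.p6, chr9:21015690-21015939, plus strand) are shown because 2 short motifs of inducible promoters were found in them, marked in capitals.
Icam1 promoter: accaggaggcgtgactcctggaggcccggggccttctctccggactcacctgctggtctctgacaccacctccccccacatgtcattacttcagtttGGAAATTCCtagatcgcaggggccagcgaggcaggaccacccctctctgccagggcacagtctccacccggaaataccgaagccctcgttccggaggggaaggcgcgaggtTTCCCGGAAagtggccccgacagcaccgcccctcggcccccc
GGAAATTCC, a form of the binding motif of NF-κB, began 153 bases before the start and was found on either strand in 0.286% of 32851 promoters of this length. TTCCNGGAA, a palindrome bound by STAT proteins, began 42 bases before the start and was found in 0.913%. RefSeq windows were at hand for 5 of the 9 members (Itga4, Cd44, Itgam, Itgb1 and Icam1), and GGAAATTCC was in that of Icam1 and in none of the other windows. The motifs were chosen after the Icam1 values had been seen, and a match describes letters, not binding.

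The liver-labelled library held 9591 barcodes and the spleen-labelled library 4830, with 79585807 and 35672251 UMIs (unique molecular identifiers, counts of RNA molecules). Tissue transcripts went against the labels. In assigned cells of the liver-labelled library, Alb (hepatocytes) and Clec4f (Kupffer cells) had 0 UMIs of 68667953, which allows up to 0.0437 UMIs per 1000000 (CPM) by a limit of 3 counts, whereas in the spleen-labelled library they reached 19.4 and 124.5 CPM. Ighd, of follicular B cells, stood at 83.1 CPM in the liver-labelled library and 16.6 CPM in the other. Clusters of 245 endothelial-like and 164 hepatocyte-like cells were found in the spleen-labelled library only. The labels may therefore be swapped, and no other record was used to settle the organ. Each library is called by its label throughout, as a name and not as a statement of its organ. The 2 libraries shared 15 barcodes, and of the 6 assigned in both none carried the same hashtag. The vehicle, low dose and high dose groups held 3103, 3194 and 2138 cells in the liver-labelled library and 822, 1301 and 865 in the spleen-labelled library, with medians of 4497 to 4794 and of 4694 to 7930 UMIs per cell.

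Cell classes were clusters named from marker genes ("-like"), and the members took no part in the clustering. In vehicle cells, neutrophil-like cells carried most of the beta 2 integrin and selectin ligand RNA of the liver-labelled library. They held 72.0% of all Itgam UMIs, 60.2% of Itgb2, 67.5% of Selplg and 68.1% of Cd44, against 19.4% of Itgb1 and 10.7% of Icam2, and they were 46.1% of the vehicle cells. Their shares in the spleen-labelled library were 39.0% for Itgam, 34.5% for Itgb2, 45.4% for Selplg and 29.6% for Cd44, with 35.9% of the vehicle cells.

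The VLA-4 genes were highest in other cells. Itgb1 stood at 393 CPM (298 to 509) in NK cell-like cells of the liver-labelled library and at 547 CPM (402 to 727) in endothelial-like cells of the spleen-labelled library, against 23.5 and 24.0 CPM in neutrophil-like cells of both libraries, the lowest leukocyte class compared. Itga4 was at 848 CPM (704 to 1011) in NK cell-like cells, next came monocyte-, B cell- and T cell-like cells at 196, 175 and 165 CPM with overlapping intervals, and granulocyte progenitor-like cells were last at 23.8 CPM. In the spleen-labelled library, where NK cell-like cells formed no class of their own, T cell-like cells led Itga4 with 287 CPM (221 to 366), overlapping B cell-like cells at 213 CPM. The share of Itgb1 among the UMIs of both beta chains ran from 8.19% in vehicle neutrophil-like cells to 82.0% in early progenitor-like cells of the liver-labelled library.

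The alpha chains that pair with beta 2 differed in level between classes. Itgam was highest in neutrophil-like cells of the liver-labelled library, at 273 CPM (264 to 283), was next in NK cell-like cells at 186 CPM (123 to 271, 27 UMIs), whose interval overlapped those of its neighbours, and reached 5.37 CPM in T cell-like and 4.29 CPM in B cell-like cells, where 10 of 10 neutrophil markers were also found at 1543 and 1693 CPM in sum. Their part in these low Itgam levels was not tested. Itgam in the spleen-labelled library stood at 337, 310 and 292 CPM in macrophage-, neutrophil- and monocyte-like cells, and the intervals of neighbours overlapped. Of the UMIs of Itgal and Itgam together, Itgal made up 93.3% in T cell-like, 87.3% in B cell-like, 65.4% in NK cell-like and 22.6% in neutrophil-like cells of the liver-labelled library. Itgb2, the shared chain, ran from 434 CPM in NK cell-like cells to 28.2 CPM in early progenitor-like cells.

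Selplg was at 875 CPM (730 to 1041) in NK cell-like, 441 CPM (429 to 453) in neutrophil-like, 327 CPM in T cell-like and 50.02 CPM in B cell-like cells of the liver-labelled library. It was low in granulocyte progenitor-like cells, at 56.5 and 102.9 CPM in the 2 libraries, compared with 441 and 423 CPM in neutrophil-like cells. Cd44 in the liver-labelled library was highest in macrophage-, neutrophil- and monocyte-like cells, at 201, 176 and 164 CPM with overlapping intervals. NK cell-like cells came next at 96.5 CPM (14 UMIs), with an interval overlapping that of monocyte-like cells. Granulocyte progenitor-like cells, also myeloid, were at 38.6 CPM and T cell-like cells at 23.1 CPM.

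The counter-receptors were sparse in neutrophils. Icam1 was at 4.85 CPM (58 UMIs) in vehicle neutrophil-like cells of the liver-labelled library, against 31.9 CPM in both B cell- and T cell-like cells and 58.7 CPM in macrophage-like cells. Icam2 was at 128 CPM (64 to 229) in endothelial-like cells of the spleen-labelled library, which also held 10 of 10 endothelial markers, and next at 55.7 CPM in B cell-like cells with an overlapping interval. In neutrophil-like cells it was at 3.26 and 1.80 CPM. Endothelial-like cells carried 0 Itgam UMIs in the vehicle group, of 85989 UMIs in 34 cells, which allows up to 34.9 CPM by a limit of 3 counts (the exact interval drawn in the plot of vehicle levels reaches 42.9 CPM).

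**Figure D1:**
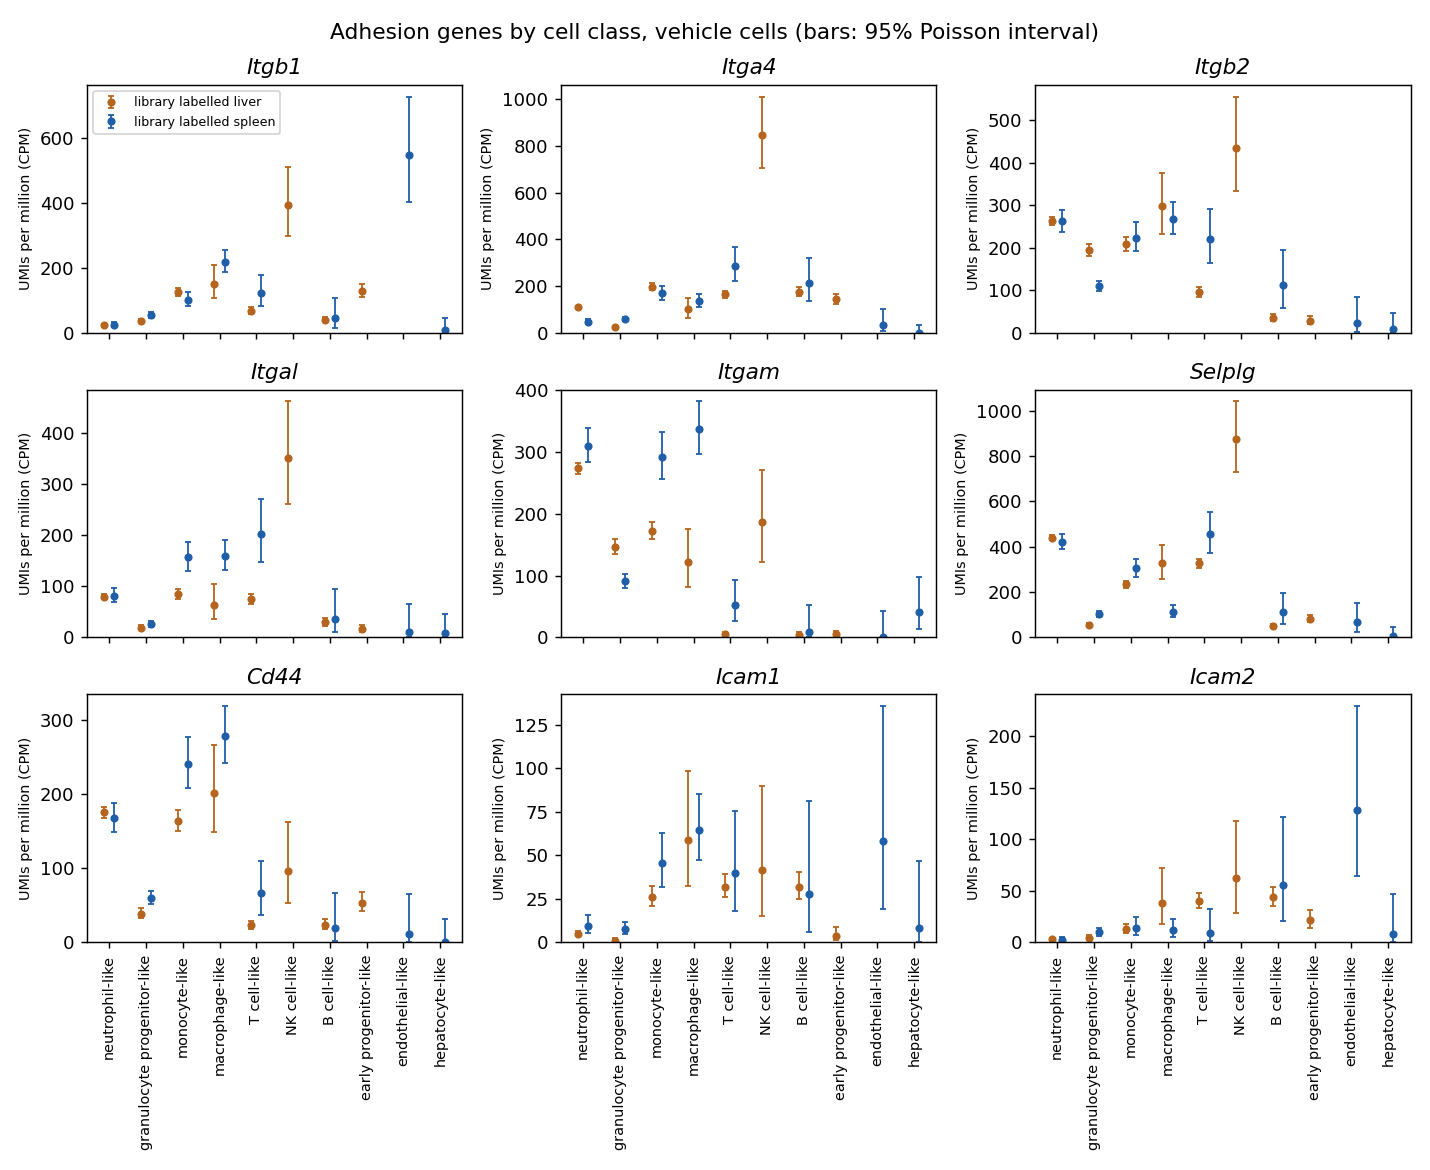
Level of each gene in vehicle cells in CPM (linear axis from 0) in each class with at least 30 cells, orange for the liver-labelled library and blue for the spleen-labelled library, with 95% Poisson intervals. Itgam is near 0 in B cell-like cells. Its highest level is 273 CPM within the liver-labelled library, in neutrophil-like cells, and 337 CPM within the spleen-labelled library, in macrophage-like cells. Itga4 and Selplg peak in NK cell-like cells at 848 and 875 CPM, and Itgb1 and Icam2 peak in endothelial-like cells of the spleen-labelled library at 547 and 128 CPM.

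Comparing the high dose with the vehicle, neutrophil-like cells of the liver-labelled library had a smaller share of Itga4 RNA. Itga4 stood at 109 CPM (103 to 115) in the vehicle, 104 CPM (98.6 to 111) at the low dose and 51.8 CPM (45.0 to 59.4) at the high dose. The high dose was below both other groups, with a log2 ratio to the vehicle of -1.08 (-1.29 to -0.86), and the vehicle and low dose intervals overlapped. A difference was called here when the log2 ratio was at least 1.0 in size (2-fold) with at least 50 UMIs over both groups. Itga4 and Icam1 were the 2 members of 9 so called, where 14% of the 7443 genes tested in these cells were called, and the median log2 ratio of all those genes was -0.34. Icam1 rested on few molecules, 58 in the vehicle, 83 at the low dose and 9 at the high dose, with a log2 ratio of -1.11 (-2.31 to -0.09).

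The remaining adhesion genes of these cells differed in direction. Selplg was at 441, 485 and 348 CPM in the vehicle, low dose and high dose groups, Cd44 at 176, 212 and 119 CPM, and Itgal at 79.7, 96.0 and 59.6 CPM. For all of them the high dose was the lowest and the low dose the highest, with log2 ratios of the high dose to the vehicle of -0.34, -0.56 and -0.42 and intervals below 0. The Mac-1 genes stood the other way, with Itgam at 273, 293 and 301.02 CPM and Itgb2 at 264, 300 and 312 CPM, and ratios of 0.14 (0.04 to 0.24) and 0.25 (0.15 to 0.34). Itgb1 was at 23.5, 28.3 and 14.5 CPM. Icam2, at 3.26, 2.71 and 3.24 CPM, did not differ beyond counting error (-1.04 to 0.93).

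The neutrophil-like cells compared were different in kind. They numbered 1429, 1289 and 199 in the vehicle, low dose and high dose groups, and their median depth was 4368, 5724 and 18606 UMIs per cell. Clusters 2 and 3, led by inflammatory genes such as Il1b, Fos and Fgl2, held 69.9% of them in the vehicle (999 of 1429 cells), 58.7% at the low dose and 6.03% at the high dose (12 of 199 cells). These clusters held the most Itga4, with 268 and 266 CPM over all doses, against 56.7, 26.97 and 42.4 CPM in clusters 6, 7 and 10, whose leading genes included Stfa3, Ltf and Retnlg, respectively. They also led Selplg (855 and 918 CPM against 143 to 446), Cd44 (335 and 380 CPM against 88.2 to 160) and Itgal (152 and 172 CPM against 37.5 to 76.1), while Itgam was lower in them (237 and 235 CPM against 274 to 341). Within clusters 6 and 7, the high dose over vehicle ratio of Itga4 was 0.27 (-0.10 to 0.65) and -0.09 (-0.62 to 0.42). Selplg had ratios of -0.02 (-0.16 to 0.12) and 0.43 (0.23 to 0.63) in these clusters. Those of Itgb2 were 0.21 (0.05 to 0.38) and 0.01 (-0.14 to 0.17). For Itgb1 (-0.23 and 0.04), Cd44 (-0.11 and 0.19), Itgal (0.02 and -0.11) and Itgam (0.05 and -0.02) the intervals held 0. With the clusters of the high dose group weighted as in the vehicle, an alternative chosen after the data were seen, the ratio was -0.13 for Itga4, 0.04 for Cd44 and 0.25 for Selplg. These weighted ratios carry no interval. For clusters 2 and 3, which held 69.9% of the vehicle cells, they rest on 12 high dose cells. They therefore cannot show the part of the cluster mix in the ratios. Per cell, Itga4 was at 91.4, 89.8 and 104.5 UMIs per 100 neutrophil-like cells in the vehicle, low dose and high dose groups, while these cells were deepest at the high dose. The part of depth in these ratios was not tested. The Itga4 call ended also with the filter on cells (-0.79), without the 20 most abundant genes in the total (-0.95), at resolution 1.6 (-0.57) and with cells gated on markers (-0.88). The Icam1 call ended with weighted clusters (-0.30, with the same limit), without those 20 genes (-0.98) and with gated cells (-0.92). Icam1 had under 50 UMIs with the filter on cells and at resolution 1.6.

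**Figure D2:**
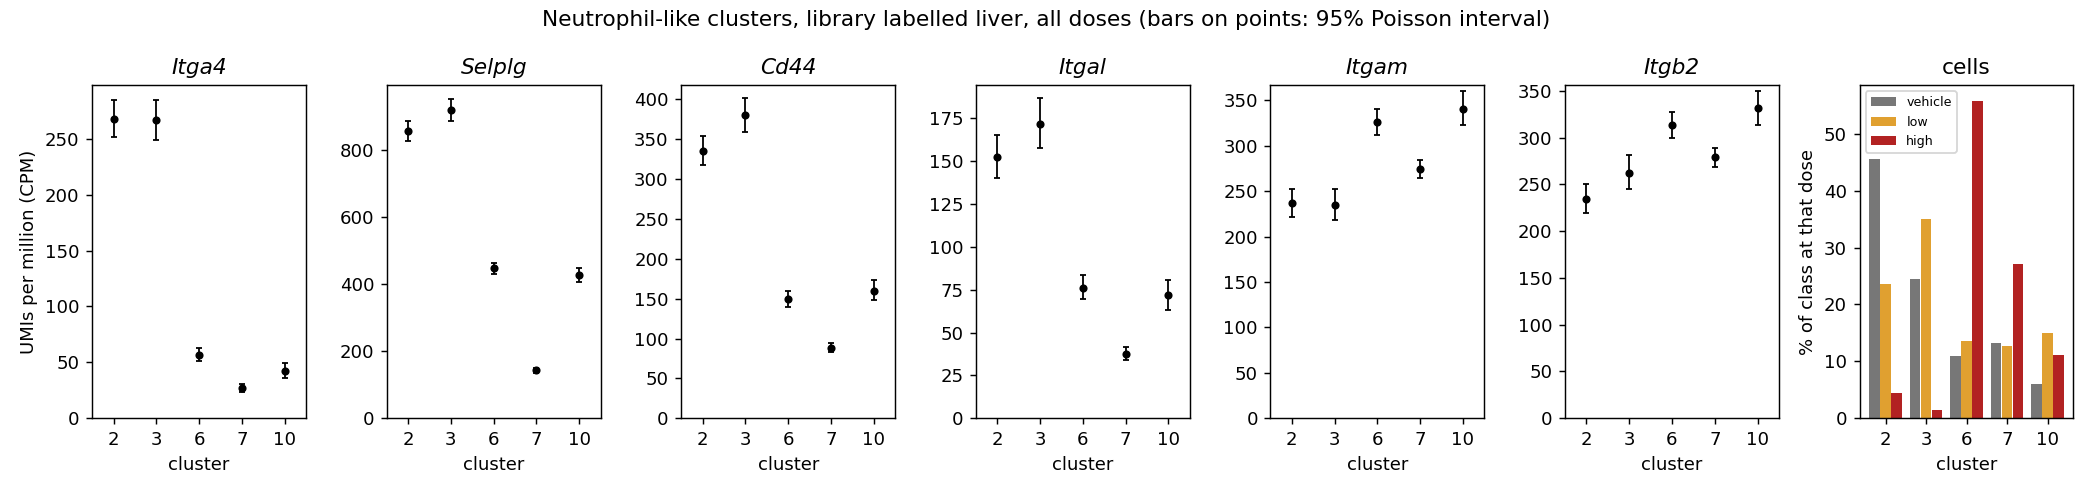
Neutrophil-like clusters of the liver-labelled library. Points give CPM of 6 genes over all doses with 95% Poisson intervals, and bars give the percent of the neutrophil-like cells of each dose in each cluster. Clusters 2 and 3 are high in Itga4, Selplg, Cd44 and Itgal and low in Itgam, and they hold 69.9% of vehicle cells and 6.03% of high dose cells.

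In neutrophil-like cells of the spleen-labelled library, 0 of the 7 members compared were called at the high dose, where 6.58% of all genes were. Itga4 was at 48.0, 54.2 and 36.8 CPM (80, 156 and 47 UMIs), and its ratio of -0.38 (-0.93 to 0.15) was within counting error. Selplg was lower at the high dose, at 423, 487 and 354 CPM (-0.26, -0.43 to -0.08), and Itgam and Itgb2 were higher, with ratios of 0.28 and 0.40 and intervals above 0, as in the other library. Cd44 was at 167, 235 and 200 CPM with a ratio of 0.25 (0.00 to 0.50), on the other side of 0 from the liver-labelled library. Here clusters 2 and 7, with Il1b among their leading genes (11397 and 5638 CPM), accounted for 54.2% of these cells in the vehicle, 42.6% at the low dose and 10.9% at the high dose. Cluster 13, not counted with them, also carried Il1b, at 2038 CPM, and held 2 of 295, 119 of 564 and 2 of 110 cells. The fall at the low dose therefore depends on leaving cluster 13 out. Within cluster 0, which held 97 vehicle and 74 high dose cells, the high dose ratio of Selplg was 0.11 (-0.12 to 0.34). There the ratios were 0.30 (0.04 to 0.55) for Itgam, 0.34 (0.09 to 0.59) for Itgb2 and 0.50 (0.16 to 0.84) for Cd44. That of Itga4 was 0.02 (-0.75 to 0.80).

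At the low dose 0 members were called in neutrophil-like cells of either library (of 9 and 7 compared), where 1.31% and 2.28% of all genes were. Cd44 nevertheless stood above the vehicle in 9 of the 9 neutrophil-like clusters compared in the 2 libraries, with log2 ratios of 0.17 to 0.88 and an interval above 0 in 7. The clusters of a library were cut from the same pooled groups and are not repeats. The share of all genes above the vehicle within clusters was not counted. Itgal, Itgb2 and Selplg were above the vehicle in 8 of 9 clusters each, with intervals above 0 in 4, 4 and 3, and Itgam in 4 of 9. Over all assigned cells, 9 of 9 members were above the vehicle at the low dose in both libraries, by 0.08 to 0.50 and by 0.14 to 0.72 on the log2 scale, and none of them was called, where 1.43% and 3.3% of all genes were. The median log2 ratio of all genes tested there was -0.00124 and 0.0956, and the share of all genes above 0 was not counted. At the high dose the sums over all assigned cells, in which the shares of the classes differed, had 1 member called in the liver-labelled library (Icam2, 1.02) and 2 in the spleen-labelled library (Itgb1, 1.23, and Icam1, 1.07), where 12.5% and 14.4% of all genes were. In the liver-labelled library, neutrophil-like cells held 67.5% of the Selplg UMIs in the vehicle and 31.4% at the high dose, and T cell-like cells 12.5% and 46.4%. In the same groups neutrophil-like cells were 46.1% and 9.31% of the cells, and T cell-like cells 19.0% and 47.8%.

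T cell-like cells carried more Itgb1 at the high dose. In the liver-labelled library Itgb1 was at 68.1 CPM (59.0 to 78.1) in the vehicle, 83.0 (74.5 to 92.2) at the low dose and 104 (95.4 to 112) at the high dose, in 590, 864 and 1021 cells, and the ratio of the high dose to the vehicle was 0.61 (0.37 to 0.84). The high dose interval lay above that of the vehicle, and no member of the 8 compared was called, where 0.796% of all genes were. In the spleen-labelled library Itgb1 was at 124, 135 and 266 CPM (28, 86 and 364 UMIs) in 44, 104 and 169 cells, a ratio of 1.10 (0.55 to 1.71), and was the 1 member called of 7, where 10.6% of all genes were. That call ended at resolution 1.6 (0.98), as a mean over cells (0.89) and with cells gated on markers (0.62).

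The T cell-like clusters differed widely in Itgb1. Cluster 5 of the liver-labelled library, in which Foxp3, the regulatory T cell factor, stood at 139 CPM beside Ikzf2 and Ctla4 among its leading genes, held 391 CPM of Itgb1, against 19.6, 33.7 and 13.1 CPM in clusters 0, 4 and 8. It was also the highest in Itga4 (338 CPM), Cd44 (74.0 CPM against 10.2 to 14.8) and Itgal (156 CPM against 36.3 to 63.2), while Selplg was at 353 CPM against 325 to 408. This cluster made up 82 of 590 T cell-like cells in the vehicle (13.9%), 152 of 864 at the low dose (17.6%) and 226 of 1021 at the high dose (22.1%). Within it the Itgb1 ratio was 0.13 (-0.15 to 0.42), and with the clusters weighted as in the vehicle the ratio in T cell-like cells was 0.04. The weighted ratio in the spleen-labelled library was 1.12.

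**Figure D3:**
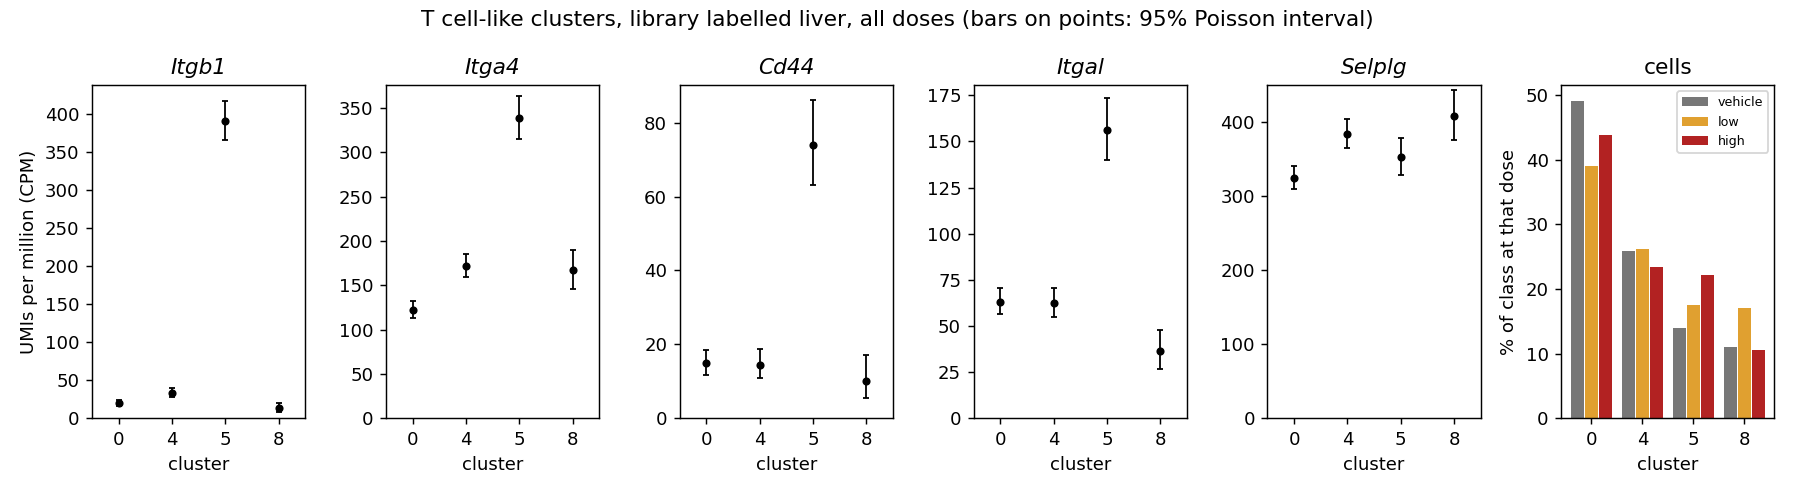
T cell-like clusters of the liver-labelled library. Points give CPM of 5 genes over all doses with 95% Poisson intervals, and bars give the percent of the T cell-like cells of each dose in each cluster. Cluster 5 stands at 391 CPM of Itgb1 and 338 CPM of Itga4, above clusters 0, 4 and 8, and its share of cells is 13.9% in the vehicle and 22.1% at the high dose.

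Other genes of T cell-like cells differed between the libraries. Itga4 was at 165, 146 and 214 CPM in the liver-labelled library, a ratio of 0.37 (0.22 to 0.53), and at 287, 285 and 212 CPM in the spleen-labelled library, a ratio of -0.44 (-0.83 to -0.03). Selplg had ratios of 0.18 (0.07 to 0.29) and -0.49 (-0.81 to -0.17). T cell-like cells of the spleen-labelled library were partly of another kind. Cluster 4, with Gzma, Cd3g and Cd8a among its leading genes, held 24 of 44, 60 of 104 and 117 of 169 cells. In it Gzma stood at 3520 CPM, Cd8a at 552 CPM (in 75.6% of its cells) and Ncr1 at 156 CPM (in 13.4%). The 8 NK cell markers, Gzma among them, summed to 2653, 2596 and 4078 CPM in the vehicle, low dose and high dose groups (7 of 8 detected in each). The B cell markers summed to 35.3, 42.3 and 3031 CPM, with 8 of 8 detected at the high dose, and the macrophage markers to 57.4, 563 and 373 CPM (6, 9 and 10 of 10). Their part in these ratios, and in that of Itgb1, was not tested. Icam2 in the liver-labelled library stood at 39.9, 41.8 and 43.5 CPM and Icam1 at 31.9, 24.8 and 31.7 CPM, without a difference beyond counting error.

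Icam1, the inducible counter-receptor, was higher than in the vehicle at both doses in B cell-like cells. In the liver-labelled library it was at 31.9 CPM (24.7 to 40.5), 46.9 CPM (37.7 to 57.7) and 60.5 CPM (49.4 to 73.5) in 528, 550 and 443 cells, or 67, 90 and 102 UMIs, with ratios to the vehicle of 0.56 (0.08 to 1.03) and 0.92 (0.46 to 1.39). The high dose interval lay above that of the vehicle, while 0 of the 8 members compared were called at either dose, where 1.52% of all genes were called at the high dose and 1.59% at the low dose. Within cluster 1, which held 394, 247 and 345 of these cells, the ratio was 0.63 (0.10 to 1.16) at the low dose and 0.75 (0.26 to 1.24) at the high dose. In the spleen-labelled library the counts were 3, 5 and 18 UMIs in 31, 34 and 66 cells (27.8, 39.6 and 58.8 CPM), too few for a comparison. Cd44 and Selplg of B cell-like cells were lower at the high dose, at 23.8, 18.8 and 13.1 CPM (-0.87, -1.66 to -0.12) and at 50.02, 53.7 and 35.6 CPM (-0.49, -0.97 to -0.02). Within cluster 1 the ratios were -0.47 (-1.36 to 0.39) for Cd44 and 0.01 (-0.56 to 0.57) for Selplg, while cluster 19, with the B cell precursor gene Vpreb3 first among its leading genes, held 69 of the 528 vehicle cells and 2 of the 443 high dose cells. Itga4 stood at 175, 212 and 175 CPM. The low dose cells differed in kind as well. Cluster 18 held 147 of these 550 cells, against 2 of 528 in the vehicle and 3 of 443 at the high dose. Its part in the low dose levels was not tested.

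Monocyte-like cells held more Icam1 as well. In the liver-labelled library it was at 26.2 CPM (21.0 to 32.3) in the vehicle and 55.4 CPM (45.2 to 67.1) at the low dose, a ratio of 1.08 (0.66 to 1.51) that made Icam1 the 1 member called of 9, where 2.22% of all genes were. Only 26 monocyte-like cells there carried the high dose hashtag, so they were not compared, and their level was 44.7 CPM. In the spleen-labelled library Icam1 was at 45.3, 65.0 and 97.4 CPM (36, 60 and 60 UMIs in 76, 79 and 41 cells), and the high dose ratio of 1.10 (0.48 to 1.74) was again the 1 called of 8 members, where 3.7% of all genes were. The low dose ratio there, 0.52 (-0.10 to 1.16), was within counting error. Other members also stood higher. Itgb2 was at 208 and 329 CPM in the vehicle and low dose of the liver-labelled library (0.66, 0.50 to 0.82) and at 224, 399 and 425 CPM in the spleen-labelled library (0.83 and 0.92, intervals above 0), and Itgam was at 173 and 331 CPM (0.94) and at 292, 406 and 365 CPM (0.48 and 0.32). Itgal was higher at the low dose of the liver-labelled library (0.93, 0.69 to 1.17) and within counting error in the spleen-labelled library (0.13 and -0.03). At the low dose Itgb1 (0.31 and 0.82 in the 2 libraries), Itga4 (0.42 and 0.50) and Cd44 (0.41 and 0.63) also had intervals above 0. Selplg did not stand higher, with low dose ratios of 0.00 and -0.37. Neutrophil markers, 10 of 10 detected, summed to 12378 and 16704 CPM in the former groups, and to 19037, 17338 and 22361 CPM in the latter with 9 or 10 detected. Macrophage markers summed to 255 and 496 CPM (8 of 10 detected in each) and to 571, 784 and 469 CPM (9, 10 and 9 of 10). The part of either marker list in these levels was not tested.

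**Figure D4:**
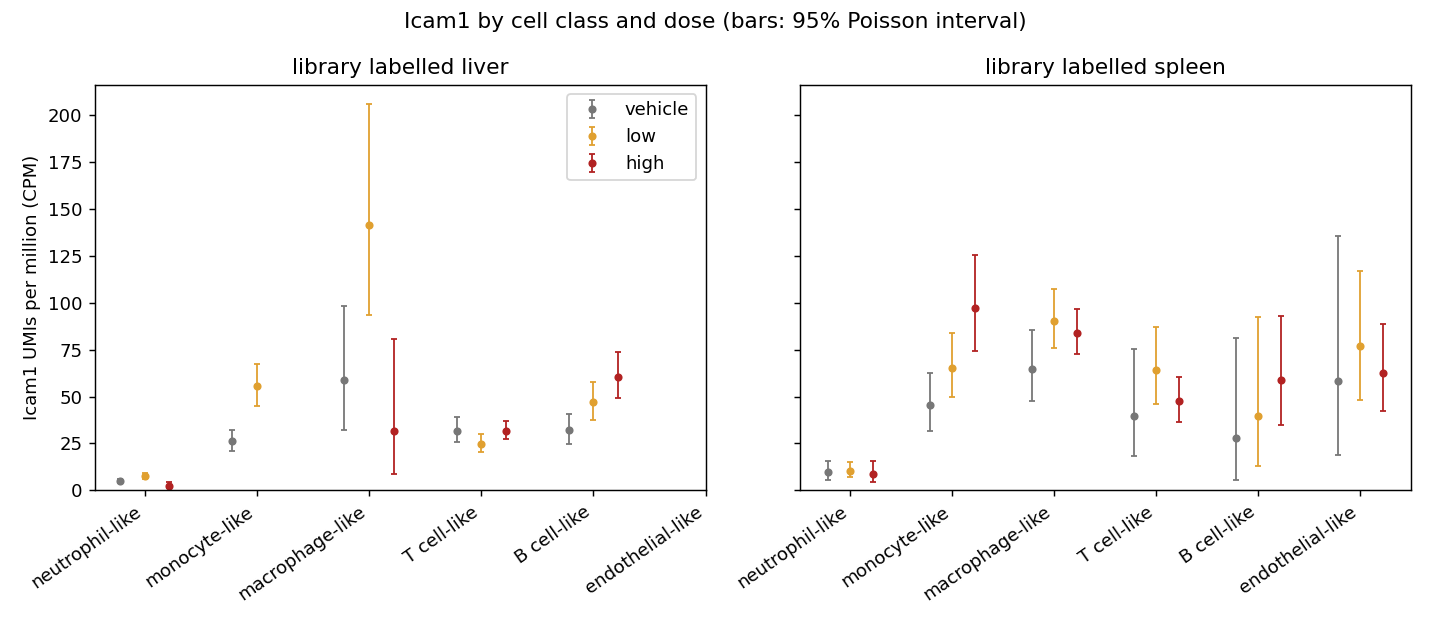
Icam1 level in CPM (linear axis from 0) by class and dose in each library, for groups with at least 30 cells, with 95% Poisson intervals. Monocyte-like cells of the spleen-labelled library and B cell-like cells of the other are highest at the high dose, at 97.4 and 60.5 CPM, while neutrophil-like cells stay at 10.4 CPM or below.

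In macrophage-like cells of the spleen-labelled library Icam2 was called at the high dose under some settings and not under others. It was at 12.1, 18.4 and 30.3 CPM (9, 27 and 69 UMIs in 55, 112 and 122 cells), with a ratio of 1.33 (0.32 to 2.51), the 1 member called of 9, where 4.99% of all genes were. Endothelial markers were also above the vehicle at both doses. Of these markers 8, 10 and 10 of 10 were detected, their sum was 73.9, 241 and 210 CPM, and Cdh5 alone was at 18.8, 85.0 and 82.6 CPM. Their part in the Icam2 levels was not tested. Within cluster 3, led by Arg1 and Ccl8, the Icam2 ratio was 2.33 (1.03 to 4.01), on only 5 UMIs in the vehicle and 60 at the high dose. The call depended on the hashtag assignment, with ratios of -0.11 by MULTIseqDemux and 0.36 by the dominant hashtag, and ended with the filter on cells (0.82) and with cells gated on markers, where Icam2 had under 50 UMIs. Icam1 in these cells was at 64.5, 90.5 and 83.9 CPM, with ratios of 0.49 (0.00 to 1.00) and 0.38 (-0.08 to 0.87). Among the integrins Itgb2 was at 269, 424 and 371 CPM (0.66 at the low and 0.46 at the high dose), Itgal at 160, 209 and 249 CPM (0.39 and 0.64) and Itga4 at 137, 104 and 92.7 CPM (-0.40 and -0.56), all with intervals on one side of 0. Neutrophil markers, 10 of 10 detected in each group, summed to 1068, 6226 and 6283 CPM, and their part in these ratios was not tested.

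The 2 macrophage-like clusters of that library carried opposite beta 2 partners. Cluster 15, led by the Kupffer cell genes Marco and Clec4f, held 537 CPM of Itgal and 97.6 CPM of Itgam, whereas cluster 3 held 144 CPM of Itgal and 419 CPM of Itgam. Cd44 was at 543 CPM in cluster 15 and 296 CPM in cluster 3, and Selplg at 79.5 and 150 CPM. Cluster 15 made up 6 of 55, 26 of 112 and 40 of 122 macrophage-like cells in the vehicle, low dose and high dose groups. Within cluster 3 the Itgal ratio at the high dose was 0.22 (-0.13 to 0.58). Macrophage-like cells of the liver-labelled library were shallow, with medians of 1602, 2664 and 857 UMIs, and also carried 10 of 10 T cell markers at 2200 to 3135 CPM. There 0 of 3 members were called at the high dose, where 7.82% of all genes were.

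Endothelial-like cells were found as a class in the spleen-labelled library only, with 34, 102 and 109 cells. Itgb1 was at 547, 424 and 379 CPM (47, 121 and 188 UMIs), and the high dose ratio was -0.53 (-0.996 to -0.03). Icam2 was at 128, 189 and 123 CPM (11, 54 and 61 UMIs) with a ratio of -0.06 (-0.996 to 1.02). Neither of these 2 members compared was called, where 10.1% of all genes were. Icam1 rested on 5, 22 and 31 UMIs (58.1, 77.1 and 62.5 CPM), and its intervals overlapped. Itgam, which marks leukocytes rather than endothelium, had 0, 15 and 32 UMIs, and Ptprc, the pan-leukocyte gene, was at 45.6 CPM at the low and 117 CPM at the high dose, while neutrophil markers summed to 1907, 3313 and 762 CPM with 8, 9 and 9 of 10 detected. Macrophage markers summed to 151, 677 and 1323 CPM with 7, 8 and 10 of 10 detected. The part of leukocyte RNA in the Itgam counts was not tested.

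**Figure D5:**
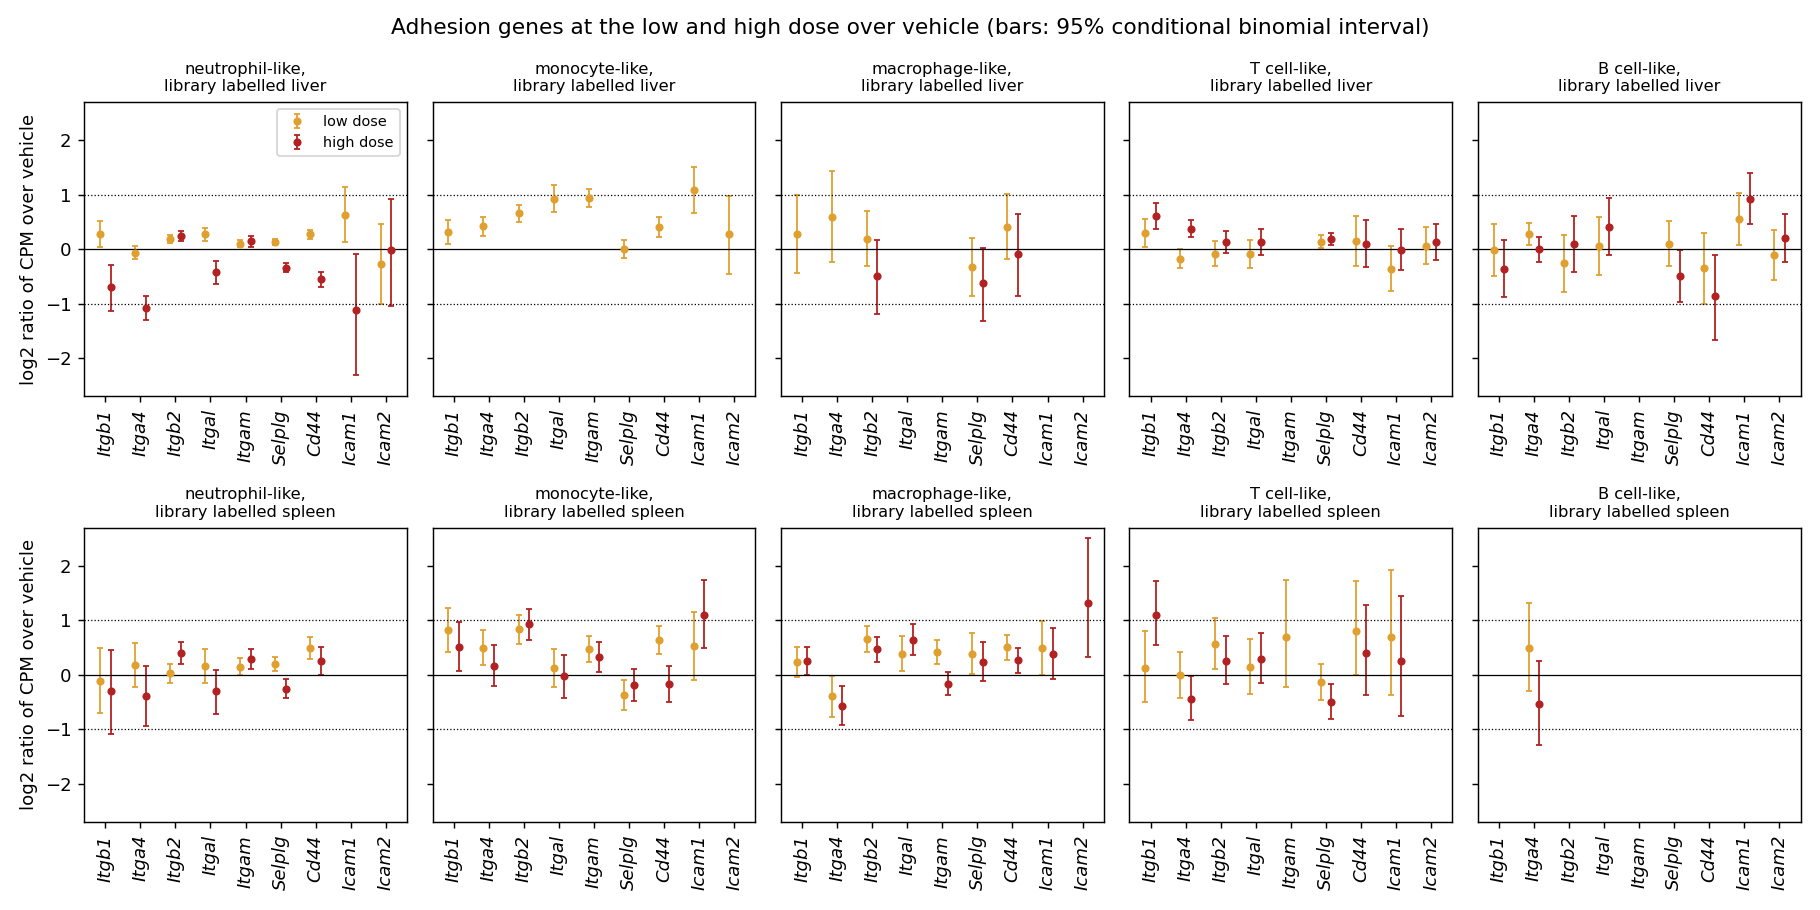
Log2 ratios of CPM over the vehicle in 5 classes (columns) and both libraries (rows) for the low dose (yellow) and the high dose (red), for genes reaching 50 UMIs in the pair of groups, with 95% conditional binomial intervals and dotted lines at 2-fold. In neutrophil-like cells of the liver-labelled library Itga4 and Icam1 lie past the lower line at -1.08 and -1.11, and in monocyte-like cells Icam1 lies past the upper line at 1.08 (low dose, liver-labelled library) and 1.10 (high dose, spleen-labelled library).

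Progenitor-like cells had no member called at the high dose. Of 7 members compared in early progenitor-like cells of the liver-labelled library (4.47% of all genes called), Icam2, Itgal and Itgb2 were higher, with ratios of 0.84, 0.86 and 0.75 and intervals above 0. There T cell markers summed to 300.03 CPM in the vehicle and 914 CPM at the high dose and neutrophil markers to 1585 and 2624 CPM (10 of 10 detected of each list), and endothelial markers to 60.9 and 98.9 CPM (3 and 4 of 10). Their part in these ratios was not tested. In granulocyte progenitor-like cells (1.33% and 7.77% of all genes called in the 2 libraries) Selplg was at 56.5, 50.3 and 85.1 CPM in the liver-labelled library, a ratio of 0.59 (0.28 to 0.90). In the spleen-labelled library Itga4 was at 58.3, 52.9 and 31.1 CPM, a ratio of -0.90 (-1.42 to -0.42), and Itgam at 90.6, 66.4 and 139 CPM, a ratio of 0.62 (0.35 to 0.89). The cells behind these 2 ratios differed in kind, since cluster 10, with Ctsg, Mpo and Cd34 among its leading genes, made up 49.6% of them in the vehicle and 23.7% at the high dose, and cluster 8, led by Camp, 50.4% and 76.3%. Within cluster 8 the ratios were -0.07 (-0.94 to 0.78) for Itga4 and 0.21 (-0.09 to 0.51) for Itgam. NK cell-like cells of the liver-labelled library had 0 of 6 members called, where 2.56% of all genes were, with Itga4 at 848, 1023 and 874 CPM, Selplg at 875, 861 and 715 CPM and Itgb1 at 393, 430 and 310 CPM in the vehicle, low dose and high dose groups, whose intervals overlapped. At the low dose 0 members were called in the classes not yet described for it. In the liver-labelled library these were T cell-like (0 of 8, 0.544% of all genes), NK cell-like (0 of 6, 1.14%), macrophage-like (0 of 5, 6.47%), early progenitor-like (0 of 7, 1.93%) and granulocyte progenitor-like cells (0 of 7, 0.817%). In the other library they were T cell-like (0 of 8, 4.71%), B cell-like (0 of 1, 7.53%), monocyte-like (0 of 8, 2.55%), macrophage-like (0 of 8, 3.37%), endothelial-like (0 of 2, 8.26%) and granulocyte progenitor-like cells (0 of 9, 2.05%). B cell-like cells of that library also had 0 of 1 member called at the high dose, where 6.03% of all genes were.

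Between the libraries, vehicle neutrophil-like cells were close in most members. Itgb2 was at 264 CPM in the liver-labelled library and 262 CPM in the spleen-labelled library, Selplg at 441 and 423 CPM, and Itgal at 79.7 and 82.2 CPM, with ratios of -0.01, -0.06 and 0.04. Icam1 was further apart, at 4.85 and 9.59 CPM (58 and 16 UMIs), with a ratio of 0.98, just short of a call. Itga4 was at 109 and 48.0 CPM, a ratio of -1.19 (-1.53 to -0.86), the 1 member called of 8, where 8.75% of all genes were. The ratio ran from -1.45 with the filter on cells to -0.74 over the alternatives, and the Itga4 call ended with MULTIseqDemux (-0.85), the dominant hashtag (-0.81) and at resolution 1.6 (-0.74). At the low and high doses its ratio was -0.95 and -0.49, and 0 of 8 and 0 of 7 members were called, where 6.51% and 5.28% of all genes were. T cell-like cells were further apart: 4 of 8 members were called, where 19.9% of all genes were, with Cd44 (1.52), Itgal (1.44) and Itgb2 (1.20) higher in the spleen-labelled library and Icam2 (-2.18) lower. The former 3 genes were called in T cell-like cells at the low dose as well (5 of 9 members, 18.3% of all genes) and at the high dose (4 of 8, 20.2%). Itgam was among the 5, at 4.59, and there 9 of 10 neutrophil markers summed to 5585 CPM in T cell-like cells of the spleen-labelled library, a value whose part in it was not tested. Macrophage-like cells had 3 of 8 called, where 20.9% of all genes were, with Itgam (1.47) and Itgal (1.35) higher and Selplg (-1.52) lower in the spleen-labelled library. Itgam and Itgal were called there at the low dose too (2 of 8 members, 24.4% of all genes) and at the high dose (5 of 9, 26.9%). Monocyte-like cells had 0 of 9 called in the vehicle (12% of all genes) and 0 of 8 at the low dose (7.57%). B cell-like cells had 2 of 8, 0 of 7 and 2 of 7 called in the vehicle, low dose and high dose groups (16.7%, 15.7% and 7.47% of all genes), and granulocyte progenitor-like cells 1 of 7, 5 of 9 and 0 of 7 (26.2%, 33.3% and 5.11%). Library and organ cannot be told apart in these values.

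A list of 59 further adhesion genes was examined beside the members: other integrin chains, selectins, the enzymes that build selectin ligands, integrin activators, other counter-receptors and hyaluronan genes. At the high dose, 27 of them were compared in neutrophil-like cells of the liver-labelled library, with 0 called higher and 1 lower (Itgav, -1.75; 14% of all genes called), and 18 in the spleen-labelled library, with 0 higher and 1 lower (St3gal6, -1.45; 6.58% of all genes). In T cell-like cells 0 of 26 were called in the liver-labelled library (0.796% of all genes) and 4 of 23 in the spleen-labelled library (10.6%), where Itgb7 (1.02), St3gal4 (1.65) and Hmmr (1.40) were higher and Itgav (-1.26) lower. In B cell-like cells of the liver-labelled library 0 of 22 were called (1.52% of all genes). In macrophage-like cells of the spleen-labelled library 5 of 31 were higher, namely Itga6 (1.45), Gcnt1 (1.10) and the endothelial or hyaluronan receptor genes Cdh5 (2.13), Lyve1 (3.41) and Stab2 (1.74), and none lower, where 4.99% of all genes were called. In those of the liver-labelled library 0 of 12 were higher and 2 lower (Vcam1, -1.23, and Itgad, -1.0003), where 7.82% of all genes were called. Granulocyte progenitor-like cells of the spleen-labelled library had 0 of 21 higher and 3 lower (Cd34, -3.34, Selp, -1.82, and Itga1, -1.05), where 7.77% of all genes were called, and those of the liver-labelled library had 0 of 18 called, where 1.33% of all genes were. These genes were named after their values had been seen. No listed gene was called in the same direction in both libraries for a class that both held. Of classes compared in 1 library, early progenitor-like cells were higher in the tight-junction gene Esam (2.295), Itgb7 (1.29), whose chain pairs with that of Itga4, and the activator Skap1 (1.08), 3 of 29 compared where 4.47% of all genes were called, and monocyte-like cells of the spleen-labelled library in the galactosyltransferase B4galt1 (1.37), 1 of 19 where 3.7% were. Endothelial-like cells were lower in Mcam (-1.50, on 22 UMIs in the vehicle and 45 at the high dose), 1 of 22 compared at the high dose, where 10.1% of all genes were called. They were higher in Stab2 (1.11), 1 of 18 compared at the low dose, where 8.26% were. Stab2 is also among the markers that named this class.

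The profile of each member over the 16 combinations of class and library in vehicle cells was set beside those of 6401 genes, as a description, since cells of 1 library share its depth and its free RNA. Itgam was most like Tyrobp (Pearson's r of 0.945), Fcgr3 and Fcer1g, which encode an Fc receptor (Fcgr3) and signaling adaptors (Tyrobp and Fcer1g) of myeloid cells. Itgal was most like Prex1, Adgre5 and Cyth4, Itgb2 like Tmsb4x, Arhgap9 and Cap1, and Selplg like Rassf5, the integrin activator, Ifngr1 and Nbeal2. Itga4 was most like Atxn7l1, Wac and Tmf1, Itgb1 like Sec23b, Nucb1 and Ext2, Cd44 like Abr, Capzb and Esd, Icam1 like Ski, Vps41 and Tapbp, and Icam2 like Pwwp2a, Dhx32 and Sec63.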

How the data were processed

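Single cells were measured with 10x Genomics droplets in 2 libraries. The deposited values are whole UMI counts for each gene and hashtag in each barcode, not normalized and without an annotation of the cells. The authors made them with Cell Ranger (6.0.0 in the submitters' processing notes, 5.0.0 in the matrix header) on mm10. Every barcode had at least 500 UMIs. Of the count columns, 0 were left unused. Genes were matched by symbol, and 32158 identifiers were found in GENCODE M21.

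Hashtags were assigned with HTODemux (Seurat 5.3.0, R 4.3.3, quantile 0.99). Cross-hashtag doublets (616 and 215 barcodes in the libraries labelled liver and spleen) and unassigned barcodes (540 and 1627) were left out, with no other filter on cells. Each library was processed with SCTransform (sctransform 0.4.2), 30 principal components and Louvain clustering (resolution 0.8) of a nearest neighbor graph, without the 9 genes and the 59 further adhesion genes. A cluster was named when at least 3 markers of a list had a log2 fold of at least 1.0 (10 CPM added) in at least 20% of its cells. UMIs were summed per class, library and hashtag group and scaled to 1000000 (CPM), with exact Poisson intervals. Ratios carry exact conditional binomial intervals. A class was compared with at least 30 cells in both groups and a gene with at least 50 UMIs over both. A count of 0 was given a limit of 3 counts. With 1 pooled sample per group no test was made. On simulated counts, 200 of 200 changed genes had the right direction at the depth of neutrophil-like cells in each library. The interval held the true ratio for 95.7% of 7443 genes (liver-labelled library) and 95.5% of 3706 (spleen-labelled library). The simulation carried counting error alone, the error the intervals are built for, so this coverage was set in advance. It cannot show how far differences between cells, clusters or mice moved the ratios.

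The members, marker lists, adhesion list and motifs were chosen with earlier results of these data known. Named beyond the members were listed genes past 2-fold in the same direction in both libraries (or in the 1 library that held the class) and, per member, the 3 genes with the highest Pearson correlation of log2(CPM + 10) among genes reaching 50 CPM. Alternatives were other hashtag calls (MULTIseqDemux, dominant hashtag), a filter on cells (at least 200 genes, under 10% mitochondrial UMIs), CPM without the 20 most abundant genes, a mean over cells, resolutions 0.4 and 1.6, gating on markers, removal of Scrublet doublets (scanpy 1.11.5), a minimum of 20 UMIs and thinning to 500 UMIs. Sums and intervals were computed in Python 3.11.15 (pandas 2.3.3, scipy 1.17.1, numpy 2.4.6).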

Additional observations from a re-analysis of the deposited data

Results flagged for a closer look

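Without the sums over all assigned cells, 60 combinations of class, gene and dose (low or high) were compared with the vehicle in both libraries. Counting also those sums, which are not among the 60, 5 combinations had intervals on opposite sides of 0, all at the high dose. The difference between the libraries was not tested, since each is 1 pooled sample per group. In T cell-like cells the log2 ratio of the high dose to the vehicle was 0.37 for Itga4 in the liver-labelled library and -0.44 in the spleen-labelled library, and for Selplg it was 0.18 and -0.49. In neutrophil-like cells Cd44 had ratios of -0.56 and 0.25. Over all assigned cells, in which the shares of the classes differ between doses, Cd44 had ratios of -0.94 and 0.41 and Itgb2 of -0.29 and 0.41.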

How the results depend on the processing

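Of 637 values of single genes under the alternatives, 576 stayed inside the interval reported and 60 moved outside it without changing a call's sign. The 1 that reversed was Icam2 of macrophage-like cells in the spleen-labelled library, at -0.11 with MULTIseqDemux. A minimum of 20 UMIs changes which genes are compared and not their ratios. Its 62 values among the 576 were therefore set in advance and show no stability. Of 102 counts of called members, 76 kept their value or stayed within 1.5 times of it. In neutrophil-like cells of the liver-labelled library the count of 2 was 0 with the filter on cells, without the 20 most abundant genes, at resolution 1.6, with gated cells and with clusters weighted as in the vehicle, and 4 as a mean over cells. Over these settings the Itga4 ratio ran from -1.70 as a mean over cells to -0.13 with weighted clusters. The latter value rests on 12 high dose cells for clusters 2 and 3. In neutrophil-like cells of the spleen-labelled library the count of 0 was 2 as a mean over cells. In T cell-like cells of the liver-labelled library the count of 0 was 1 with gated cells. In those of the spleen-labelled library the count of 1 was 0 as a mean over cells, at resolution 1.6 and with gated cells, and 3 with at least 20 UMIs. The count of 0 in B cell-like cells was 1 as a mean over cells in the liver-labelled library and 2 with at least 20 UMIs in the spleen-labelled library. The count of 0 in macrophage-like cells of the liver-labelled library was 1 with the filter on cells, at resolution 0.4 and with at least 20 UMIs. In those of the spleen-labelled library the count of 1 was 0 with MULTIseqDemux, the dominant hashtag, the filter on cells and gated cells. In endothelial-like cells the count of 0 was 2 with at least 20 UMIs. Between the libraries, in vehicle neutrophil-like cells, the count of 1 was 0 with the dominant hashtag and at resolution 1.6, and 2 without Scrublet doublets. The class with the highest CPM also had the highest share of cells with a UMI for 13 of 18 pairs of gene and library after thinning each cell to 500 UMIs, and for 4 without thinning. The cause of these changes was not tested.

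No paired analysis was possible because each hashtag group was 1 pooled sample per library, and for the same reason no replicate could be left out. Scrublet called 248 of 9591 barcodes (2.59%) and 1 of 4830 (0.0207%), so it hardly bears on the spleen-labelled library. Alternatives were not run for monocyte-, NK cell- and progenitor-like cells. Some settings left no class of 30 cells: MULTIseqDemux, the dominant hashtag and the filter on cells for endothelial-like cells, MULTIseqDemux and the filter on cells for B cell-like cells of the spleen-labelled library, and resolution 0.4 for macrophage-like cells of that library. Counts were too low to compare doses for Icam1 and Icam2 in neutrophil-like cells of the spleen-labelled library and for most members in endothelial-like cells. Both groups of these comparisons together held fewer than 50 UMIs, and the part of depth in this was not tested.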

Other observations

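The spleen-labelled library also held 60 cells named 4T1 tumor cell-like, led by Wfdc2, Krt8 and Krt18: 6 in the vehicle, 13 at the low dose and 41 at the high dose. Over all doses they carried 920 UMIs of Itgb1 (365 CPM, 342 to 389) and 528 of Cd44 (209 CPM, 192 to 228). Icam1 had 81 UMIs (32.1 CPM). Leukocyte integrin chains and the selectin ligand were sparse, with 2 UMIs of Itgal, 3 of Itgam, 1 of Itga4 and 1 of Selplg, and Icam2 had 1. Itgb2 nevertheless had 234 UMIs (92.8 CPM, 81.3 to 105.5), while the pan-leukocyte gene Ptprc was at 1.47 to 18.5 CPM over the 3 groups. No explanation for this Itgb2 level was examined.

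Neutrophil-like cluster 13 of the spleen-labelled library, led by Saa1, Saa3 and Il1r2 among others, came almost wholly from the low dose group (119 of 123 cells, with 2 in each other group). Its Itgam level was 692 CPM (625 to 765), against 275 to 312 CPM in the other neutrophil-like clusters of that library, while Itgb2 was at 233 CPM against 217 to 319 and Itga4 at 25.0 CPM against 21.8 to 158.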
